A study of Mus musculus with 4 samples.

Results

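The subject here is a set of 10 genes that fill, control and refill the calcium store of muscle cells. They are the 3 SERCA pump genes Atp2a1, Atp2a2 and Atp2a3, the pump regulators Sln and Pln, the calcium storage genes Casq1, Casq2 and Hrc, and the store-operated entry genes Stim1 and Orai1. The genes were chosen by name for their roles, and each was read from the array row that carries its Entrez gene number, so that all 10 were found among the 24011 genes tested. Differentiating Rspo1-null myocytes were compared with wild-type myocytes on Affymetrix arrays, with 2 arrays labelled Rspo1-null and 2 labelled wild-type. Both groups were primary myoblasts from limb muscles of young adult mice on a C57bl6N/sv129 background, grown for 5 passages with 20% FBS and 2 ng/ml bFGF and then kept for 24 h in DMEM with 2% HS. The Rspo1-null animals lack the secreted Wnt agonist R-spondin1 in all their cells. The paper's methods give other numbers of passages and another dose of FGF. Its results on uninjured muscle count heterozygous animals among the controls, while the labels of these arrays give wild-type. The labels number the arrays within each genotype and name neither the cultures nor the animals behind them.

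SERCA pumps move calcium from the cytosol into the sarcoplasmic reticulum after each contraction, at the cost of ATP. Small membrane peptides such as sarcolipin and phospholamban slow the pump, calsequestrins and the histidine-rich calcium-binding protein hold calcium inside the reticulum, and the sensor STIM1 opens the surface channel ORAI1 when the store runs low. In adult fast fibers the pump is the product of Atp2a1, while Atp2a2 serves slow fibers and the heart and, as another splice form, most other cells.

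The arrays part by the sex-linked transcripts across the labels. On the log2 scale Xist stood at 10.38 and 4.07 in Rspo1-null arrays 1 and 2, against 4.35 and 10.39 in wild-type arrays 1 and 2. Each genotype therefore holds 1 array with Xist (Rspo1-null 1 and wild-type 2) and 1 array with Y-linked transcripts (Rspo1-null 2 and wild-type 1). The labels name no sex, so below the word sex stands for this split of the arrays. Rspo1 itself had 5.29 and 5.33 in the Rspo1-null arrays and 5.71 and 5.84 in the wild-type arrays, a log2 difference of -0.46 (unadjusted p = 0.0286, adjusted p = 0.999 from limma), and the sources used here do not say whether its probes lie within the deleted part, so its signal checks the labels only in part. An exchange of labels between arrays was not tested, and every genotype difference given here holds for the arrays as labelled. Pearson's r, taken across genes and so without independent points, reached 0.988 for the pair of arrays with Xist and 0.981 for the pair with Y-linked transcripts. It was 0.979 for both Rspo1-null arrays and 0.975 for both wild-type arrays. Between arrays unlike in both label and sex it was 0.980 for Rspo1-null 2 with wild-type 2 and 0.973 for Rspo1-null 1 with wild-type 1. All 9 markers of muscle cells, among them Myod1, Myog and Des, were above the background level of 4.69, which is the 95th percentile of the mean log2 values of 1370 olfactory and vomeronasal receptor genes. Above it lay 2 of 6 fibroblast markers (Col1a1 and Col3a1, but not Dcn, Lum or Pdgfra), 2 of 5 cardiomyocyte markers (Nkx2-5 and Tnni3, but not Myl7, Nppa or Myh6) and 2 of 3 markers of smooth muscle and pericytes. None of the 4 endothelial, 4 leukocyte and 3 adipocyte markers reached it.

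The regulatory sequence just ahead of the start site is shown for Atp2a1, Casq1, Casq2 and Hrc, since these are the members whose values differed most between arrays and took the same order with respect to the sex-linked transcripts. Each run covers the 250 bases before the start site, read on the strand of the gene, from the RefSeq annotation of GRCm38.p6. Capitals mark the E-box CAGCTG, the form of the binding site that MyoD and myogenin are known to favor, and any match to the MEF2 motif.
Atp2a1 (chr7:126463074-126463323, minus strand): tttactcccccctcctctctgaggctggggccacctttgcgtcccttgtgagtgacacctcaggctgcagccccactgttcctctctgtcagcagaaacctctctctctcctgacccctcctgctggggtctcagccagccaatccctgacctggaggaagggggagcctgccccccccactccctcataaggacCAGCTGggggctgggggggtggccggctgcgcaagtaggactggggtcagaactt
Casq1 (chr1:172219896-172220145, minus strand): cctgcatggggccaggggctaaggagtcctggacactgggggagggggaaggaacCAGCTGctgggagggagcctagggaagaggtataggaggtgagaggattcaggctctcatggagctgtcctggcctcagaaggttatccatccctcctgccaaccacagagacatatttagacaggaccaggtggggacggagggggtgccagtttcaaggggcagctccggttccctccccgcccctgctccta
Casq2 (chr3:102086165-102086414, plus strand): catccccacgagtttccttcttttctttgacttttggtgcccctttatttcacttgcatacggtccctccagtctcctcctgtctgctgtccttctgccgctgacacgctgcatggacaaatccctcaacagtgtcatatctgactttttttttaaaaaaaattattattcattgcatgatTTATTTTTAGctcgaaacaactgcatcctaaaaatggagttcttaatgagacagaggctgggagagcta
Hrc (chr7:45335019-45335268, plus strand): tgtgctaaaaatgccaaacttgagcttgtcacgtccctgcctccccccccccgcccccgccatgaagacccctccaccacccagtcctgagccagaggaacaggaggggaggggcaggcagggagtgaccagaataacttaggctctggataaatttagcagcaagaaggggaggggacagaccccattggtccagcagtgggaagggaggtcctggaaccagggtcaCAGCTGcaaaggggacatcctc
Windows of this length were read for 8 of the 10 genes, all but Atp2a2 and Sln. CAGCTG, which reads the same on both strands, stood in 4 of these 8 windows, against 13.0% of the 32851 windows in the RefSeq table. It began 55 bases before the start site in Atp2a1, 195 in Casq1, 22 in Hrc and 246 in Orai1, a gene with a narrow spread over the arrays. The MEF2 motif, searched on both strands, stood in Casq2 alone among the 8, starting 69 bases before its start site, against 2.92% of all windows. CAGCTG is a case of the wider E-box CANNTG, which 66.2% of all windows held. Such matches describe the letters of a window and do not show that a factor binds there.

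No member differed between Rspo1-null and wild-type myocytes beyond the spread of arrays of one label. In limma 0 of the 10 passed an adjusted p of 0.05, where 0.00% of all genes did, and 0 of 10 passed an unadjusted p of 0.05, where 3.17% did. The Rspo1-null mean was higher in 5 members and lower in 5, with a median log2 difference of -0.03, against -0.03 over all genes tested, and the members' median was 0.019 after median centring. For the 7 members above background the median was -0.12, against 0.03 over all genes above background. The genotypes overlapped in all 10 members, while over all genes the groups did not overlap in 31.2%, with the Rspo1-null arrays above in 12.1% and below in 19.1%. With 2 arrays against 2, an exact permutation test of a single gene cannot give a two-sided p below 0.333.

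**Figure D1:**
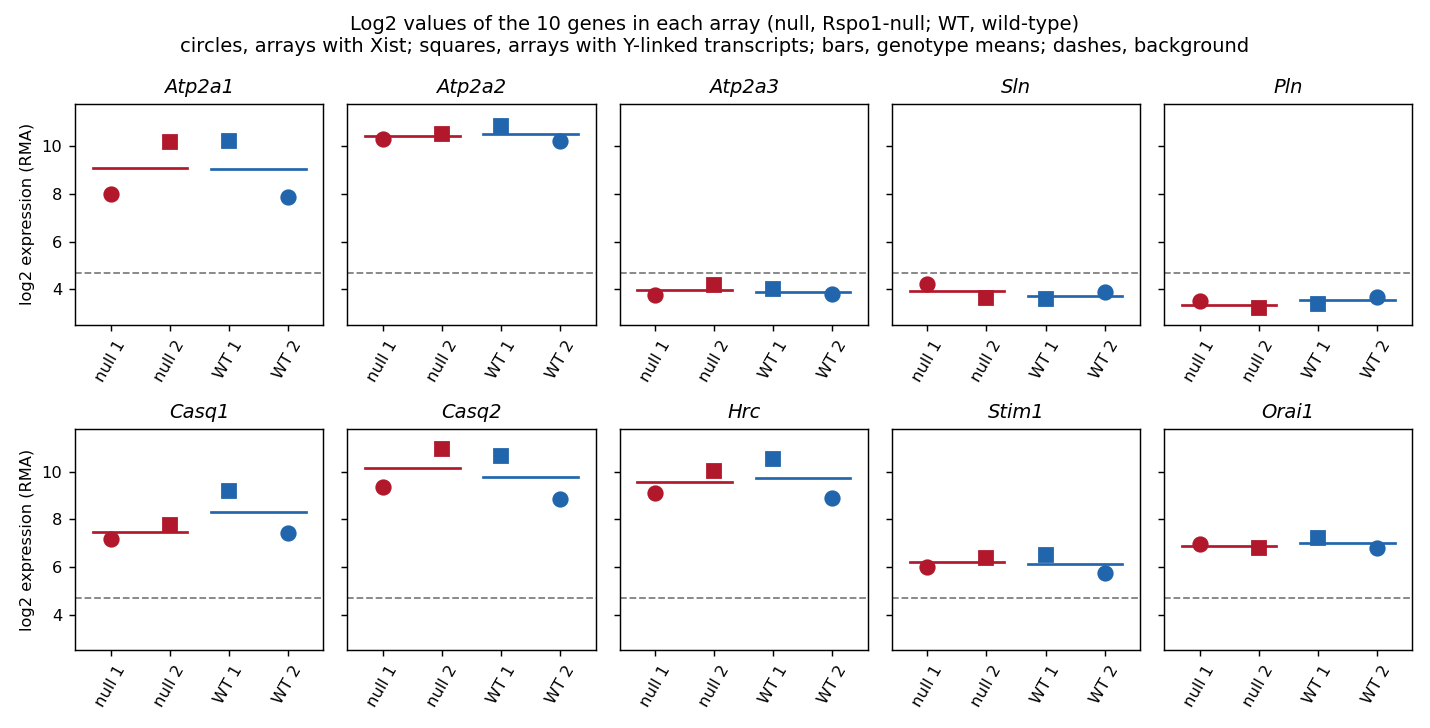
Log2 expression of each of the 10 genes (y axis) in the arrays labelled Rspo1-null 1 and 2 (red) and wild-type 1 and 2 (blue). Bars are genotype means (n = 2 arrays each), dashes mark the background level of 4.69, circles are arrays with Xist and squares arrays with Y-linked transcripts. Atp2a3, Sln and Pln lie below background in all 4 arrays, and in Atp2a1, Casq1, Casq2 and Hrc the circles lie below the squares in both genotypes. Levels of different genes are not comparable on this scale.

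Among the pumps, Atp2a1, the SERCA gene of fast fibers, had log2 values of 8.01 and 10.18 in Rspo1-null arrays 1 and 2, against 10.22 and 7.87 in wild-type arrays 1 and 2. The arrays of one genotype thus lay further apart than the genotype means of 9.09 ± 1.54 and 9.05 ± 1.66 (SD, n = 2 each), and the low value of each genotype belonged to its array with Xist. The difference, Rspo1-null minus wild-type, was 0.05 with a 95% interval from -2.74 to 2.84, and its sign turned after quantile normalization (-0.03) and cyclic loess (-0.03). Between its lowest and highest array Atp2a1 spanned 2.35 on the log2 scale, a 5.09-fold span that only 0.913% of the genes above background exceeded.

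Atp2a2, the pump gene of slow fibers and heart, varied far less. It had 10.32 and 10.53 in the Rspo1-null arrays, against 10.84 and 10.24 in the wild-type arrays. The fold change of 0.921 had a 95% interval from 0.583 to 1.46 in limma, so that a change of 2-fold in either direction lies outside that interval. Both arrays with Xist were again the lowest, by a gap of 0.20 to the nearer of the other arrays. Each value sums the splice forms that the array row covers, and the muscle form and the general form of the Atp2a2 transcript cannot be told apart here. Atp2a3, the pump gene best known from blood cells and epithelia, had 3.76 and 4.18 in the Rspo1-null and 3.99 and 3.79 in the wild-type arrays, all below background.

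The regulators Sln and Pln were below background in every array at 24 h of differentiation. Sln, which encodes sarcolipin, the pump inhibitor of skeletal muscle and atrium, had 4.21 and 3.62 in the Rspo1-null arrays and 3.57 and 3.87 in the wild-type arrays. Pln, which encodes phospholamban, the inhibitor of the cardiac and slow-muscle pump, had 3.51 and 3.20 in the Rspo1-null arrays and 3.38 and 3.67 in the wild-type arrays. At this level their signal cannot be told apart from background, and their differences, like that of Atp2a3, carry no measured change. Mrln, which encodes the micropeptide myoregulin, an inhibitor of SERCA in mouse skeletal muscle, was in contrast well above background, with 7.65 and 8.58 in the Rspo1-null arrays and 9.24 and 8.38 in the wild-type arrays. Its difference was -0.70 (unadjusted p = 0.178 and adjusted p = 0.999 from limma), and it was -0.23 without Rspo1-null array 1, -1.16 without Rspo1-null array 2, -0.27 without wild-type array 1 and -1.13 without wild-type array 2. Within each sex the Rspo1-null array was the lower, by 0.73 with Xist and by 0.66 with Y-linked transcripts, and with sex as a block, a fit chosen after seeing the data, the unadjusted p was 0.00793 and the adjusted p 0.814. In that fit 5.35% of all genes passed an unadjusted p of 0.05.

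The 3 storage genes each spanned more than 1 on the log2 scale over the arrays. Casq1, the calsequestrin of fast skeletal fibers, had 7.16 and 7.78 in the Rspo1-null arrays, against 9.18 and 7.44 in the wild-type arrays. Wild-type array 1 stood alone on the high side, by 1.40 over Rspo1-null array 2, and the other 3 arrays lay within a narrow band. The difference of -0.84 was the largest in size among the 10 members (standard error 0.62, 95% interval -2.48 to 0.80, unadjusted p = 0.241 and adjusted p = 0.999 from limma). It rested on wild-type array 1, since it was 0.04 without that array, and it was -1.71 (unadjusted p = 0.0112) without wild-type array 2.

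Casq2, the calsequestrin of heart and slow or developing muscle, had 9.35 and 10.95 in the Rspo1-null arrays, against 10.67 and 8.86 in the wild-type arrays. It was the 1 member above background that was higher in the Rspo1-null array of both sexes, by 0.49 with Xist and by 0.29 with Y-linked transcripts. The difference of 0.39 was smaller than the spread within either genotype (SD 1.13 in Rspo1-null and 1.27 in wild-type arrays, n = 2 each), and it reached an unadjusted p of 0.0624 with the sex block. Hrc, whose product binds calcium in the lumen and docks on triadin, had 9.12 and 10.02 in the Rspo1-null arrays and 10.56 and 8.92 in the wild-type arrays. Its genotype means were 9.57 ± 0.64 and 9.74 ± 1.16 (SD, n = 2 each), and its sex-wise differences pointed in opposite directions, 0.20 with Xist and -0.54 with Y-linked transcripts.

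Without a block, the entry genes had narrower intervals than Atp2a1 and the storage genes. Stim1, the calcium sensor of the reticulum membrane, had 5.99 and 6.40 in the Rspo1-null arrays, against 6.50 and 5.76 in the wild-type arrays, a fold change of 1.05 (95% interval 0.594 to 1.85). Orai1, the pore subunit of the surface channel, had 6.96 and 6.79 in the Rspo1-null arrays, against 7.21 and 6.81 in the wild-type arrays, a fold change of 0.911 (95% interval 0.632 to 1.31). A change of 2-fold lies outside both intervals, as it does for Atp2a2, and inside those of Atp2a1, Casq1, Casq2 and Hrc. Orai1 was the 1 member of the 10 whose arrays with Xist lay neither both below nor both above the others.

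**Figure D2:**
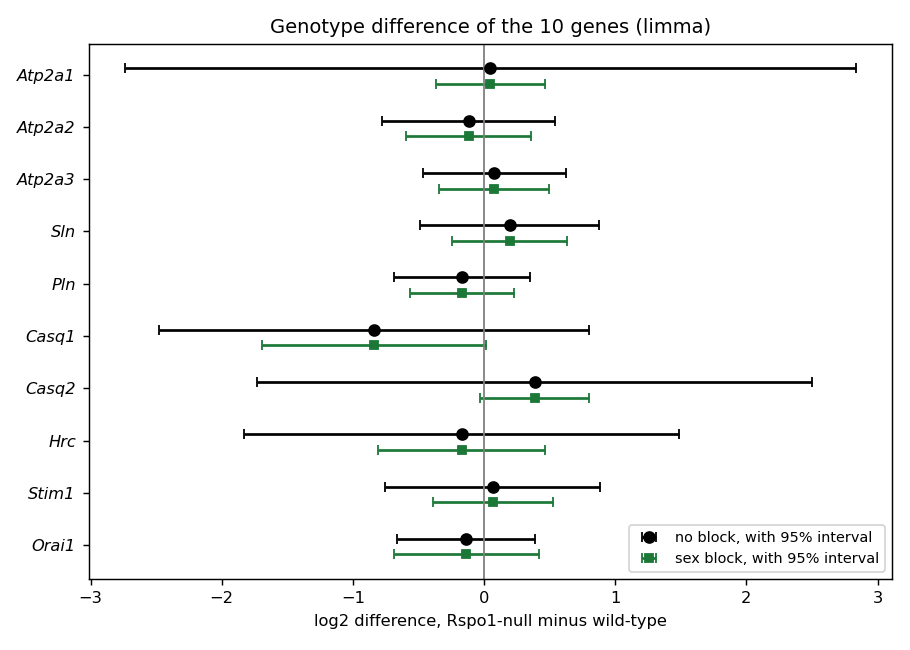
Log2 difference of each gene, Rspo1-null minus wild-type, from limma, with its 95% interval without a block (black circles) and with sex as a block (green squares, a fit chosen after seeing the data). All 20 intervals include 0, and the unblocked intervals of Atp2a1, Casq1, Casq2 and Hrc are the widest. Atp2a3, Sln and Pln were below background in all 4 arrays.

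With sex as a block the interval of the difference narrowed in 9 of the 10 members, all but Orai1, where it ran from -0.69 to 0.42 against -0.66 to 0.39 without it. Markers of differentiation such as Myog and Ckm part the arrays in the same way. The block therefore takes out sex and differentiation together, and the 2 cannot be told apart. With the sex block the interval of Atp2a1 ran from -0.36 to 0.46, against -2.74 to 2.84 without it, and that of Hrc from -0.81 to 0.47. A change of 2-fold then lay outside the interval of 9 of the 10 members and of 6 of the 7 above background, all but Casq1, with -1.69 to 0.02. The block was chosen after seeing the data, so its intervals may be too narrow and do not exclude such a change. In this fit 0 of the 10 members passed an unadjusted p of 0.05, where 2.52% of all genes were higher and 2.83% lower, and the lowest adjusted p of a member was 0.814. Within the sexes 6 members changed sign (Atp2a1, Atp2a2, Atp2a3, Hrc, Stim1 and Orai1), against 46.1% of all genes. Rspo1-null array 2 was lower than wild-type array 1 in 6 of the 7 members above background, while Rspo1-null array 1 was higher than wild-type array 2 in 6 of the same 7. The shares of all genes with these orders were not counted. Some of the differences were small, such as -0.04 in Atp2a1 with Y-linked transcripts and 0.08 in Atp2a2 with Xist. Whether the sexes differ in the effect of genotype was not tested, since each sex holds 1 array of each label.

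**Figure D3:**
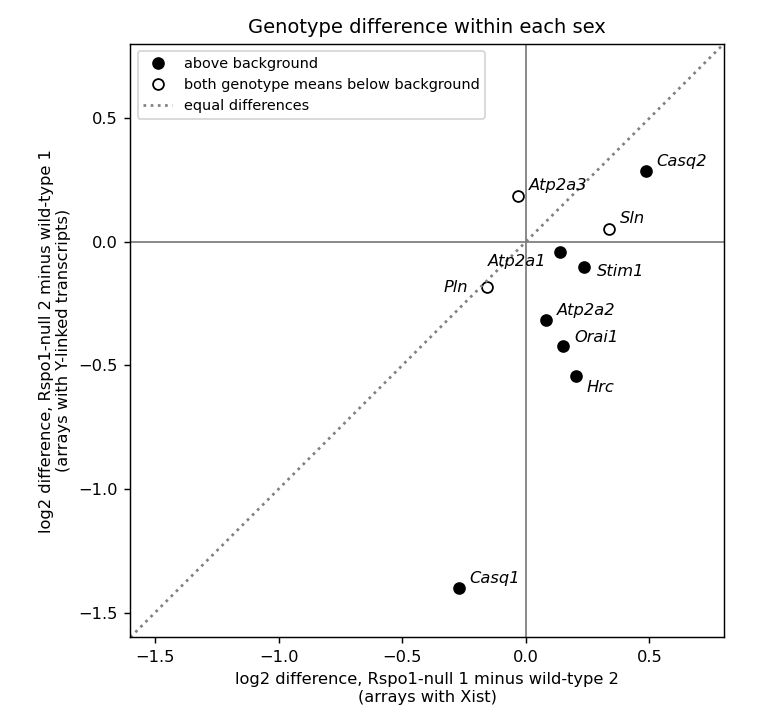
Log2 difference within the arrays with Xist (x axis, Rspo1-null 1 minus wild-type 2) and within those with Y-linked transcripts (y axis, Rspo1-null 2 minus wild-type 1), 1 point for each of the 10 genes. Open points have both genotype means below background, and the dotted line marks equal differences. Casq1 (-0.27 and -1.40) and Casq2 (0.49 and 0.29) lie apart from the others above background, which have small positive values on the x axis and negative values on the y axis.

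The order that the members shared followed the sex-linked transcripts and not the genotype labels. In 7 of the 10 members the arrays with Xist were the lower pair, against 22.2% of all genes. Among these was Atp2a3, at values below background. Of the 7 members above background 6 had this order, against 20.8% of all genes above background. Sln and Pln had the reverse order, which 19.8% of all genes took, at values below background. The gap between the pairs of arrays was 2.17 in Atp2a1, 1.32 in Casq2, 0.90 in Hrc, 0.40 in Stim1 and 0.34 in Casq1. Markers of differentiation had the same order. Myog had 9.96 and 11.70 in the Rspo1-null arrays and 11.07 and 9.56 in the wild-type arrays, and Ckm had 6.06 and 8.16 in the Rspo1-null arrays and 8.92 and 5.55 in the wild-type arrays. Of the 9 muscle markers 7 were lower in both arrays with Xist, by a small margin in Myod1 (10.07 and 10.34 in the Rspo1-null arrays, 10.07 and 9.87 in the wild-type arrays), and 2, the myoblast genes Pax7 and Myf5, lay higher. The sum of the 9 log2 values was 82.8 and 86.9 in the Rspo1-null arrays and 85.0 and 80.3 in the wild-type arrays. The part of the state of differentiation in the order of the members was not tested. In such cultures fewer differentiated cells and less RNA of these genes per cell cannot be told apart.

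Genes whose values ran closest to a member were sought among the other genes above background, 12272 with the member itself, for the 4 members that spanned more than 1 on the log2 scale. Likeness was the root mean square difference of the log2 values over the 4 arrays, with each gene centered on its own mean. Nearest to Atp2a1 were Xirp1 (0.142), Erbb3 (0.155) and Mir1a-1hg (0.167). Nearest to Casq2 were Trim72 (0.0541), C430049B03Rik (0.0666) and Ogn (0.0748). Hrc was followed by Srebf2 (0.0603), Foxo6 (0.079) and B4galt5 (0.0912), and Casq1 by Cdc42ep2 (0.0906), Tspan13 (0.119) and Mustn1 (0.123). Casq1 and its neighbors share a high value in wild-type array 1 alone, as in Cdc42ep2, with 5.63 and 6.20 in the Rspo1-null arrays against 7.43 and 5.72 in the wild-type arrays. Casq2 and its neighbors were instead highest in Rspo1-null array 2, as in Trim72, with 5.68 and 7.40 in the Rspo1-null arrays against 7.14 and 5.25 in the wild-type arrays. With 4 arrays such likeness is a description of these values.

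Of 53 further genes of calcium handling, 46 were measured here, 36 of them above background. In limma 0 rose and 1 fell at an unadjusted p of 0.05 in the Rspo1-null arrays, where 1.20% and 1.97% of all genes did, and 0 passed after adjustment. The 1 gene was Slc8a1, the sodium-calcium exchanger of the heart, with 3.61 and 3.66 in the Rspo1-null and 4.49 and 4.35 in the wild-type arrays, all below background. With the sex block 4 of the 46 passed an unadjusted p of 0.05, with the lumen genes Calr and Rcn3 higher in the Rspo1-null arrays and Slc8a1 and Mrln lower, where 5.35% of all genes passed, 2.52% higher and 2.83% lower. The median difference of the 46 was 0.07, with 30 higher and 16 lower means in the Rspo1-null arrays, against 10768 higher and 13239 lower over all genes. Genes above background leaned the other way, with 6851 higher and 5420 lower and a median of 0.032. The 36 related genes above background had a median of 0.084. After quantile normalization and cyclic loess the median of the 46 was 0.023 and 0.012. Among the other entry genes, Stim2, a sensor related to STIM1, spanned the widest range, with 8.17 and 8.69 in the Rspo1-null arrays and 8.95 and 7.76 in the wild-type arrays.

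Of 13 calcium-binding proteins of the lumen, 10 were higher in both arrays with Xist than in both others, where 19.8% of all genes and 27.3% of those above background were, among them the chaperones Hspa5 and Hsp90b1. Srl, the muscle protein sarcalumenin, was the 1 gene of the 13 with the opposite order, with 8.04 and 9.59 in the Rspo1-null arrays and 9.66 and 8.15 in the wild-type arrays, the order of Casq2 and Hrc. Of 5 genes of the junctional scaffold, which ties the reticulum to the T-tubule, 4 were lower in both arrays with Xist, where 22.2% of all genes and 20.8% of those above background were, and Asph was the exception. Trdn, which encodes the calsequestrin anchor triadin, had 7.03 and 7.43 in the Rspo1-null arrays and 8.62 and 6.34 in the wild-type arrays, with the high value in wild-type array 1 alone, as in Casq1. Of 6 release and counter-ion channels, 3 had the order of Atp2a1, set against the same shares, among them Tmem38a, the TRIC-A potassium channel of muscle reticulum, with 7.23 and 9.02 in the Rspo1-null arrays and 8.69 and 7.22 in the wild-type arrays. Mcu, the pore of mitochondrial calcium uptake, followed too, with 8.24 and 8.99 in the Rspo1-null arrays against 8.76 and 8.01 in the wild-type arrays. The surface pump gene Atp2b1 had 9.60 and 9.24 in the Rspo1-null arrays and 9.20 and 9.55 in the wild-type arrays, the reverse order. The cytosolic calcium-binding gene S100a1 had 6.69 and 6.87 in the Rspo1-null and 6.64 and 6.73 in the wild-type arrays. None of these orders was tested, and the arrays were grouped here by Xist and not by these genes.

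**Figure D4:**
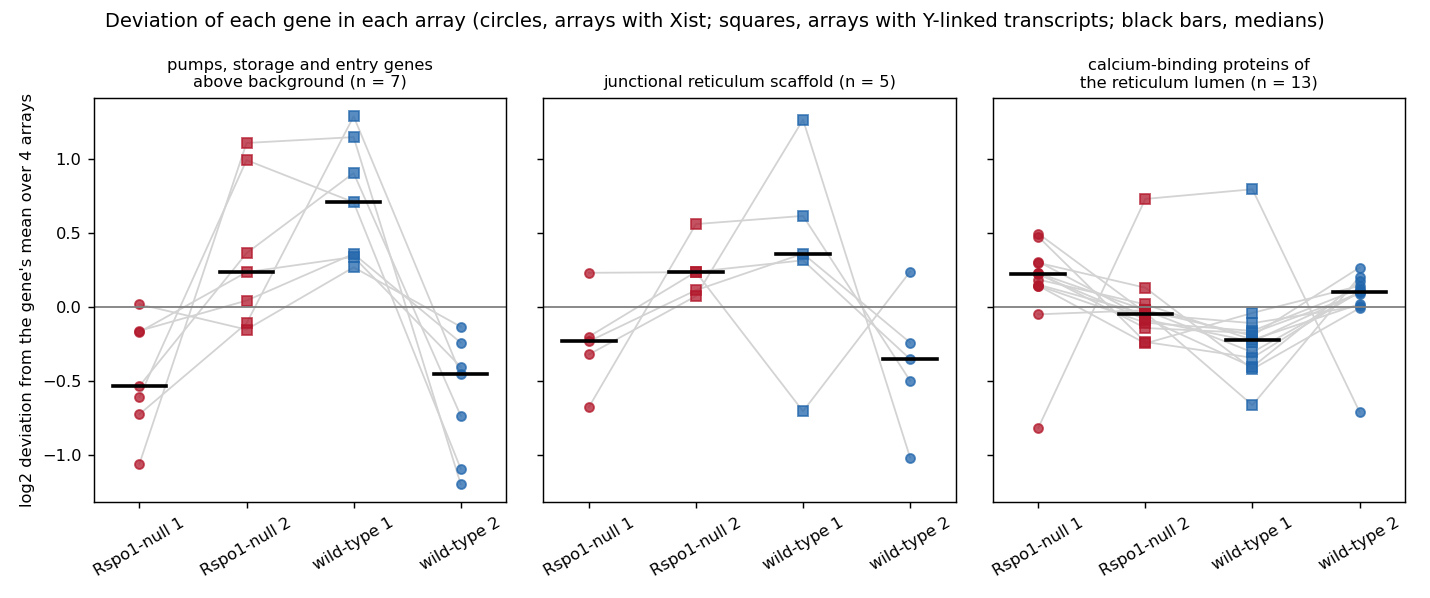
Deviation of each gene's log2 value from its own mean over the 4 arrays (y axis), for the 7 members above background, 5 genes of the junctional scaffold and 13 calcium-binding proteins of the lumen, in arrays labelled Rspo1-null (red) and wild-type (blue). Black bars are medians and grey lines join the values of 1 gene; circles are arrays with Xist. The median of the members is -0.53 and 0.24 in Rspo1-null arrays 1 and 2 and 0.71 and -0.45 in wild-type arrays 1 and 2, and that of the lumen proteins is 0.22 and -0.05 in the Rspo1-null arrays and -0.22 and 0.10 in the wild-type arrays.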

How the data were processed

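Gene expression was measured on 2 Rspo1-null and 2 wild-type arrays, grouped by the genotype in the labels. The deposited values are log2 intensities, 1 for every array and row; R software is named for the normalization in the supplementary methods, and RMA and Partek in the submitters' processing notes, without versions. Arrays hold no count depth, so their number limits the precision. Of 24973 rows, 24015 were paired with 1 symbol through the platform's gene table, 0 with several and 958 with none; 4 symbols had several rows, of which the brightest on average was used. All 24011 genes were fitted with limma 3.58.1 in R 4.3.3, Rspo1-null minus wild-type, without a block, with Benjamini-Hochberg adjustment, and the members were read from that fit. A gene is called above background when a genotype mean reaches 4.69. The code of the fit was checked on simulated data with independent noise in each array. Those data lack the likeness of arrays with the same sex-linked transcripts, so they do not test the p-values given here. Since no label names cultures or animals, p-values measure only the spread between these arrays. The 2 arrays of each label differ in sex-linked transcripts, so they are not repeats of 1 RNA sample. How many animals stand behind each array is not known.

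Named genes are all members, related genes past an unadjusted p of 0.05 or with the widest range among the genes of their role above background, the 3 nearest genes of each member spanning more than 1, and checks of the arrays; Asph, Hspa5, Hsp90b1, Calr and Rcn3 were added after their values were seen. The members and lists were chosen with earlier results of these data known. Of the related genes listed, 7 were not analysed here, and the Schwann cell marker Sox10 was below background. Alternatives were other scalings, a filter on dim genes, an intensity trend, the methods' one-way test, the mean of a symbol's rows, a replicate block and leaving out each array; a sex block was added after seeing the data. Same-numbered arrays did not deviate together.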

Additional observations from a re-analysis of the deposited data

How the results depend on the processing

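No member passed an adjusted p of 0.05 under any alternative, and no gene did. Without a block 760 genes passed an unadjusted p of 0.05 (288 higher and 472 lower in Rspo1-null arrays), against 280 with dim genes left out, which tests fewer genes, and 540 to 1711 when 1 array was left out, the most without wild-type array 2. Median centring gave 435 higher and 317 lower, cyclic loess 346 and 337. The replicate block gave 400 genes and changed no call of a member. Deviations of same-numbered arrays correlated by -0.358. With 2 arrays in each genotype, the crossed pairing must give the same value with the opposite sign. By this sign the crossed arrays deviated together. Since 1 of the pairings must come out positive, this does not show which cultures or animals were paired. The crossed pairing, which is the sex block chosen after seeing the data, gave 1284 genes, 4 related calcium genes in place of 1, and 0 members. The related genes past this threshold were 0 with dim genes left out and 1 to 6 when 1 array was left out, among them 6 without wild-type array 2, 5 without wild-type array 1 and 2 without Rspo1-null array 2. Their median of 0.07 became 0.12 after median centring, 0.023 after quantile normalization and 0.012 after cyclic loess, and 0.034 to 0.081 when 1 array was left out. The cause of these shifts was not tested.

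Leaving out 1 array turned the sign of 9 members: Atp2a1 ranged from -1.13 to 1.22, Atp2a2 from -0.42 to 0.18, Atp2a3 from -0.13 to 0.29, Sln from -0.10 to 0.49, Casq1 from -1.71 to 0.036, Casq2 from -0.52 to 1.29, Hrc from -0.99 to 0.65, Stim1 from -0.31 to 0.44 and Orai1 from -0.34 to 0.066. The values of Atp2a3 and Sln, like those of Pln, lie below background, so their signs carry no measured change. The members' median ranged from -0.38 to 0.18, and 0 to 1 members passed an unadjusted p of 0.05, the 1 being Casq1 without wild-type array 2. Among the related genes, Mrln ranged from -1.16 to -0.23, Stim2 ranged from -0.51 to 0.67, Srl from -0.86 to 0.69, Tmem38a from -0.72 to 1.06, Trdn from -1.39 to 0.90, Atp2b1 from -0.14 to 0.23 and Mcu from -0.14 to 0.61. Quantile normalization and cyclic loess turned the sign of Atp2a1 (-0.032 and -0.031) and of Atp2b1 (-0.037 and -0.039). The intensity trend, the mean of a symbol's rows and the methods' one-way test changed none of these signs or calls, with 1139 genes past the unadjusted threshold in the last.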
